A study of Homo sapiens with 4 samples.

Results

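The regions described here are the APC ChIP-seq peaks of the PHLDB2 gene and of its neighbor ABHD10 on human chromosome 3. They were chosen by the deposited peak lists themselves: every peak whose nearest transcription start site (TSS) belonged to PHLDB2 or ABHD10, and any other peak that started in a 320 kb window of hg19 around both genes. This gave 18 of 6263 peaks in replicate 1 and 28 of 8393 peaks in replicate 2, or 46 of 14656 peaks in both lists. No peak of the window belonged to another gene by nearest TSS. Because the members were selected on the peak lists, their number and positions are a description, and no test was made on them.

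All samples were HCT-116 cells, a human colon cancer line in established use. Its APC is not mutated, whereas its β-catenin carries a mutation that blocks degradation, so that canonical WNT signaling is active in every sample. The 4 samples were 2 biological replicates of APC ChIP, made with a polyclonal antibody against the last 50 residues of APC, and 2 matching inputs of pre-cleared chromatin. No genotype, treatment or time differed between them. Fixation, in 1% formaldehyde for 10 min, came 24 h after the cells were seeded. Several months lay between the replicates, and the effects of replicate and of date cannot be told apart. The authors set each ChIP library against its own input when they called peaks, and this was the only background. No value of the input libraries was used here, and sequencing depth was unknown. The lists held no enrichment or p-value. The only size they gave was the width of each peak, which depends on depth and threshold as well as on enrichment.

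APC is the tumor suppressor that helps to mark β-catenin for degradation in the cytoplasm, and it also binds microtubule ends. When β-catenin escapes degradation it enters the nucleus and works on DNA through TCF/LEF factors such as TCF7L2. PHLDB2, also called LL5β, is a phosphoinositide-binding protein with a pleckstrin homology domain that gathers at the cell cortex, where it holds microtubule plus ends through CLASP proteins. ABHD10 is a mitochondrial enzyme that removes palmitate from proteins. In GENCODE 44 on GRCh37, the same assembly as hg19, PHLDB2 runs on the plus strand from 111451344 to 111695364 (244 kb). Its long transcript has 18 exons and 17 introns and begins at 111451344, and a group of shorter transcripts begins inside intron 2, the first of them at 111578027. These are called the long start and the inner start below. ABHD10 begins after the end of PHLDB2, from 111697857 to 111712215 (14.4 kb), on the same strand.

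A peak was called shared when the centre of a peak of the other replicate lay under 400 bp away. The study set the same limit between summits, which the lists did not hold, so centres were used here. In the locus 12 replicate 1 peaks and 12 replicate 2 peaks were shared, and they formed 12 pairs. All 12 shared regions lay in introns of PHLDB2, and none lay in ABHD10. A few sequences are shown first because they carry the letters that the results on motifs turn on. They were taken from the GRCh37 assembly, plus strand, each as 240 bases of a replicate 1 peak, and capitals mark matches to the TCF7L2 letters (AACAAAG or ATCAAAG or TACAAAG or TTCAAAG) or the AP-1 letters (TGACTCA or TGAGTCA) on either strand.
Intron 1, next to the long start, shared region 1 (chr3:111454222-111454461): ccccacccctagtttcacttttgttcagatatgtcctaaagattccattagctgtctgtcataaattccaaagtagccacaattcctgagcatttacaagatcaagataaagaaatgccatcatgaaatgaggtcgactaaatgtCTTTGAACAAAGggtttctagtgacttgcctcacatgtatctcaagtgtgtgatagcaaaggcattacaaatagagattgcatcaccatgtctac
Intron 2, widest region before the inner start, shared region 4 (chr3:111567007-111567246): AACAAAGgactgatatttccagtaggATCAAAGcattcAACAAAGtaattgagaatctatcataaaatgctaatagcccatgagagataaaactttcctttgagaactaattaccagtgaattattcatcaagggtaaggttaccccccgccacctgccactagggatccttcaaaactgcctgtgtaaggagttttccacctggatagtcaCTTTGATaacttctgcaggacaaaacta
Intron 6, widest region of the locus, shared region 8 (chr3:111642376-111642615): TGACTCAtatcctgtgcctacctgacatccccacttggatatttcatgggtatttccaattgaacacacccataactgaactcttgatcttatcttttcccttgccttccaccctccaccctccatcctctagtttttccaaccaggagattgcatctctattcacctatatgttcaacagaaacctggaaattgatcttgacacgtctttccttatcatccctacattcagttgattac
Intron 6, shared region 11 (chr3:111651873-111652112): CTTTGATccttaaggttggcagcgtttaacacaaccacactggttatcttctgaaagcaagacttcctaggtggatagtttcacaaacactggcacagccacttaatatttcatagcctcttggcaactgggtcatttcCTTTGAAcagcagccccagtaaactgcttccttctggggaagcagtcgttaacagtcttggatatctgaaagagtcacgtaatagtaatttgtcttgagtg
Intron 9, shared region 12 (chr3:111666235-111666474): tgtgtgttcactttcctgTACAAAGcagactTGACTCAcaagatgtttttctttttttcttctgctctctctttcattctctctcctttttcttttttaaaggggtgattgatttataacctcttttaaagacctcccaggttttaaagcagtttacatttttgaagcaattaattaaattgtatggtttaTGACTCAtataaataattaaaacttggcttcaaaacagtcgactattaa
In shared region 1 the capitals hold 2 TCF7L2 matches on opposite strands that have 2 bases in common, which is why they read as one run. Shared region 4 holds 4 TCF7L2 matches, 3 of them close together and the last near the centre of the peak. The replicate 1 peak of shared region 8 holds 1 AP-1 match and no TCF7L2 match, whereas its wider replicate 2 peak also holds 4 TCF7L2 matches. Shared region 12 was the only shared region with both kinds of letters near its centre, and its TCF7L2 match was followed by an AP-1 match after 6 bases.

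The share of peaks found in both replicates was close to that of the whole lists. Of the replicate 1 peaks of the locus, 12 of 18 (66.7%, exact Clopper-Pearson 95% interval 41.0% to 86.7%) were shared, beside 63.6% over all replicate 1 peaks. Of the replicate 2 peaks, 12 of 28 (42.9%, 24.5% to 62.8%) were shared, beside 45.5% over all replicate 2 peaks. Intervals here cover counting error only. Overlap by at least 1 bp gave 16 of 18 replicate 1 peaks (88.9%, 65.3% to 98.6%) and 14 of 28 replicate 2 peaks (50%, 30.6% to 69.4%), beside 65.4% and 45.9% of the whole lists. The difference in replicate 1 came from 4 peaks of intron 6 that touched a replicate 2 peak without a centre near its centre. The shared pair farthest apart had centres 254.5 bp apart, and the nearest pair outside the limit had centres 444.5 bp apart and overlapped. Over the whole gene body, 88.4% of the bases inside replicate 1 peaks were also inside a replicate 2 peak, beside 69.9% genome-wide. In the other direction, 36.2% of the bases inside replicate 2 peaks were inside a replicate 1 peak, beside 36.7% genome-wide.

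**Figure D1:**
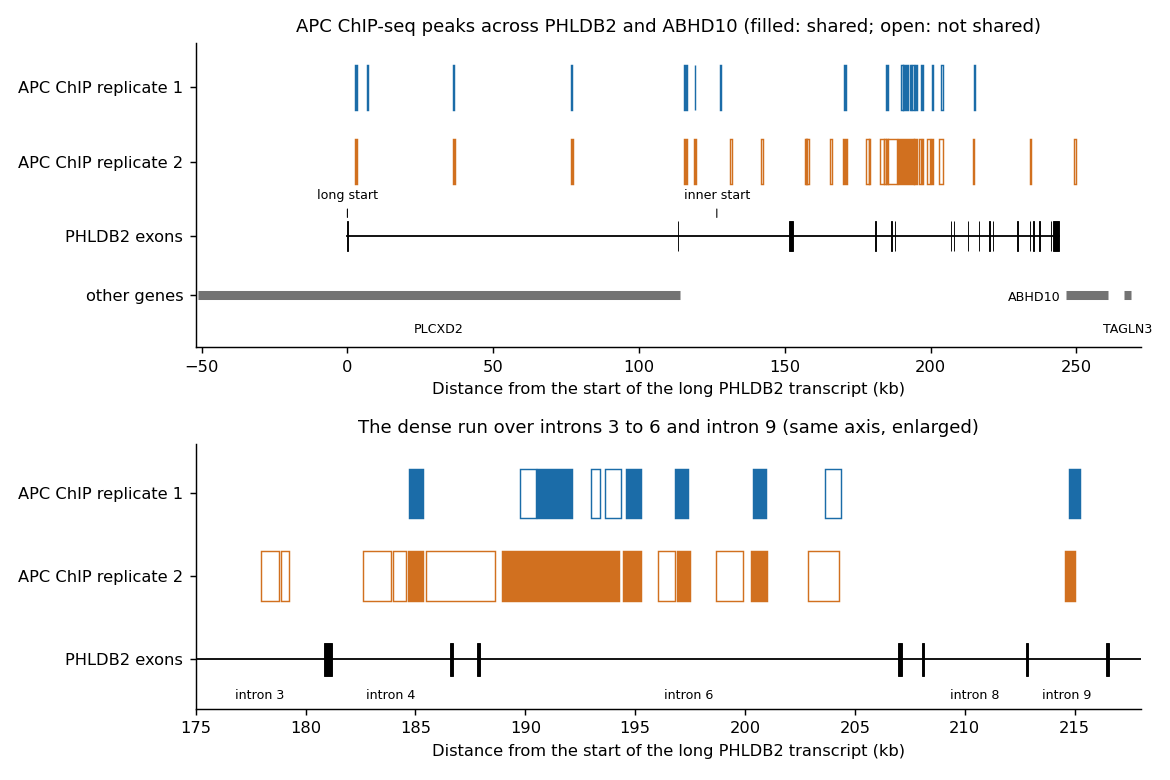
APC ChIP-seq peaks by replicate, drawn to scale against the distance from the long PHLDB2 start in kb, with PHLDB2 exons in black and the bodies of PLCXD2, ABHD10 and TAGLN3 in gray, cut at the edges of the window. Filled boxes are shared peaks and open boxes are not, and the lower panel enlarges the dense run, where 1 wide replicate 2 peak of intron 6 lies over 4 replicate 1 peaks.

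The peaks were not spread evenly over the gene. Between the long start and the inner start, a stretch of 127 kb, there were 6 replicate 1 peaks and 5 replicate 2 peaks, and all but 1 replicate 1 peak were shared. From the inner start to the end of the gene, 117 kb, there were 12 replicate 1 peaks and 22 replicate 2 peaks, 7 of each shared. Peaks covered 2.20% of the first stretch in replicate 1 and 2.95% in replicate 2. They covered 6.93% of the second stretch in replicate 1 and 19.6% in replicate 2. Thus all 16 replicate 2 peaks without a partner lay after the inner start, 1 of them beyond PHLDB2.

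No peak covered either main start of PHLDB2 or the start of ABHD10. The nearest peak to the long start began 2735 bp from it in replicate 1 and 2559 bp from it in replicate 2. This was shared region 1, from 111454079 to 111454604 in replicate 1 and from 111453903 to 111454697 in replicate 2. The nearest replicate 1 peak to the inner start lay 1262 bp after it, from 111579289 to 111579489, and had no partner. Its centre was 821 bp from the closest TSS in the deposited table, which made it the only member under 1 kb from a TSS. In replicate 2 no member was that close (0 of 28, which at 3 counts allows a share of up to 10.7%), beside 30.1% of all replicate 2 peaks, and in replicate 1 the share was 5.56% (1 of 18), beside 37.5% of all replicate 1 peaks. One shorter annotated transcript, PHLDB2-214, which begins at 111630457, had its start inside a replicate 2 peak that was not shared, from 111630207 to 111630602.

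Introns held 18 of 18 replicate 1 members and 27 of 28 replicate 2 members, beside 29.1% and 31.8% of the whole lists. The exception was a replicate 2 peak of 449 bp on exon 14, from 111685279 to 111685726. Because introns of PHLDB2 fill most of the window, a high intron share was largely set by the choice of the locus. Intron 1 of the long transcript is 113 kb long, yet it held 4 replicate 1 peaks and 3 replicate 2 peaks, which covered 1.43% and 1.68% of it. Its shared regions lay 3.0 kb, 36.4 kb and 76.9 kb from the long start. Intron 1 is also inside the annotated body of PLCXD2, a phospholipase C-like gene on the same strand from 111393523 to 111565294, so these peaks had 2 possible hosts. In intron 2, shared regions lay 116 kb and 119 kb from the long start, both before the inner start and inside the body of an antisense non-coding gene, ENSG00000286492. TAGLN3, a gene for a neuronal actin-binding protein that starts at the edge of the window, held no peak centre.

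Intron 6 held the most bases inside peaks of any intron, 6090 bp in replicate 1 and 11550 bp in replicate 2. It is 19.1 kb long and held 8 replicate 1 peaks and 7 replicate 2 peaks by centre, 4 of each shared. Peaks covered 32.0% of intron 6 in replicate 1 and 60.6% in replicate 2, and 95% of the bases covered in replicate 1 were covered in replicate 2 as well. Intron 5, only 1.07 kb long, lay wholly inside a replicate 2 peak of 3098 bp, from 111636844 to 111639940, that no replicate 1 peak overlapped. Intron 4 was covered for 11.9% in replicate 1 and 67.7% in replicate 2, so that by share of length introns 4 and 5 were above intron 6 in replicate 2 and below it in replicate 1. When peaks less than 5 kb apart were joined, replicate 1 had a run of 9 peaks over 19.7 kb, from 111636062 to 111655729, 34.2% of it inside peaks. In replicate 2 the run held 13 peaks over 26.3 kb, from 111629304 to 111655607, 67.4% of it inside peaks. After intron 6 the peaks became sparse again, with shared region 12 in intron 9 as the only shared region.

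The widest replicate 2 peak of the locus ran from 111640265 to 111645607 (5344 bp) and ranked 7 by width among 8393. Of the 6 wider peaks, 5 were in satellite repeats and the other was in LINC-PINT. This one call lay over 4 separate replicate 1 peaks of 755, 1577, 448 and 746 bp, which together covered 63.9% of it. Only the peak of 1577 bp, from 111641894 to 111643469 and ranked 43 of 6263 in replicate 1, counted as its partner. The other 3 had centres 1472.5, 1599 and 2406 bp from the centre of the wide peak and counted as not shared under the 400 bp limit, although 85.6% to 100% of their bases lay inside it. The centre of both calls fell in an L2b LINE element.

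**Figure D2:**
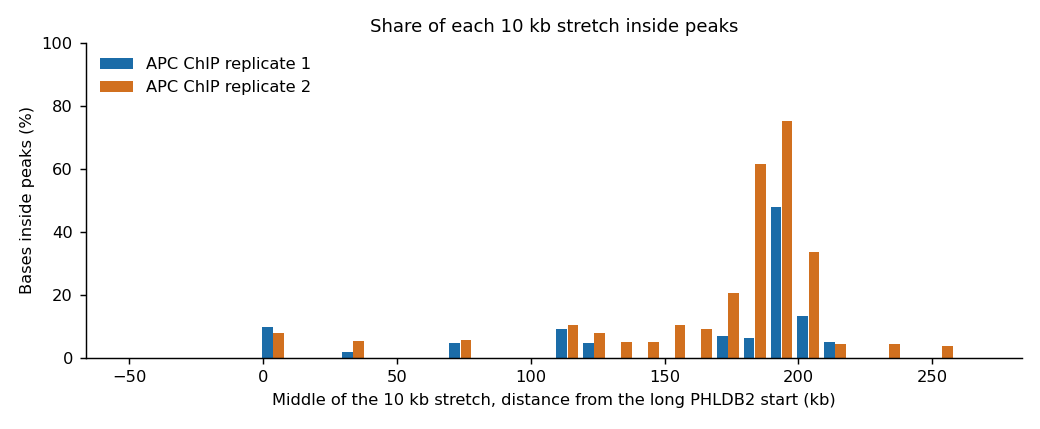
Percentage of the bases of each 10 kb stretch of the window that lay inside peaks, for both APC ChIP replicates, against the distance of the middle of the stretch from the long PHLDB2 start in kb. The highest bars are at intron 6, with 47.8% in replicate 1 and 75.2% in replicate 2, and replicate 2 alone reaches 61.6% in the stretch before it.

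Cut into stretches of 10 kb, 10 of the 32 stretches of the window had any base inside a replicate 1 peak and 16 had one inside a replicate 2 peak. The stretch from 111640001 to 111650000 had 4779 bp inside replicate 1 peaks and 7522 bp inside replicate 2 peaks. Among 8872 such stretches of the genome with any peak, it ranked 7 by replicate 1 and 8 by replicate 2. By the lower of its values it ranked 1, a place that depended on where the grid was laid. With the grid moved by 5 kb, the best stretch of the locus ranked 7.

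Gaps around and within the locus were not set beside those of the whole lists, so they are not shown to be unusual. The next replicate 1 peak before the locus was 920 kb away and was assigned to PVRL3-AS1. The next one after the locus was 614 kb away and was assigned to ATG3, an autophagy gene. In replicate 2 these distances were 127 kb, to a peak assigned to ZBED2, and 104 kb, to a peak assigned to C3orf52. Within the locus the median gap between neighboring peaks was 3364 bp in replicate 1 and 2543 bp in replicate 2. Of these gaps, 4 in replicate 1 and 11 in replicate 2 were under 1000 bp.

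The gene that a region was credited to depended on the rule. By nearest TSS, 9 of 18 replicate 1 members were assigned to PHLDB2 and 9 to ABHD10. All 9 assigned to ABHD10 lay in introns of PHLDB2 transcripts, from 31368 bp to 56260 bp before the ABHD10 start. In replicate 2, nearest TSS gave 17 members to PHLDB2 and 11 to ABHD10, and 10 of these 11 were hosted by PHLDB2. Among shared regions the split was 7 for PHLDB2 and 5 for ABHD10 by nearest TSS, and 12 for PHLDB2 and 0 for ABHD10 by host transcript. The same 12 centres fell inside the GENCODE body of PHLDB2. The only peak in ABHD10 itself was a replicate 2 peak of 384 bp from 111700678 to 111701060, in intron 2 and 3146 bp after the start, and replicate 1 had no peak within 31252 bp of the ABHD10 start. ABHD10 therefore entered the shared set through nearest TSS alone.

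Members were on the wide side of their lists. Replicate 1 members were 178 to 1577 bp wide with a median of 577.5 bp, beside a median of 371 bp over the list, and 15 of 18 were wider than the list median. Replicate 2 members were 258 to 5344 bp wide with a median of 706 bp, beside 532 bp over the list, and 19 of 28 were wider than the list median. Among the widest 10% of each list were 6 of 18 replicate 1 members and 7 of 28 replicate 2 members. In replicate 1, members shared under the 400 bp limit had a median width of 577.5 bp and the other 6 a median of 597 bp. This comparison depended on the limit. Of those 6, 4 overlapped a replicate 2 peak and were 448 to 755 bp wide. The 2 that overlapped none were 443 and 202 bp wide. In replicate 2 the medians were 752 bp for shared members and 551.5 bp for the other 16, with ranges that overlapped.

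**Figure D3:**
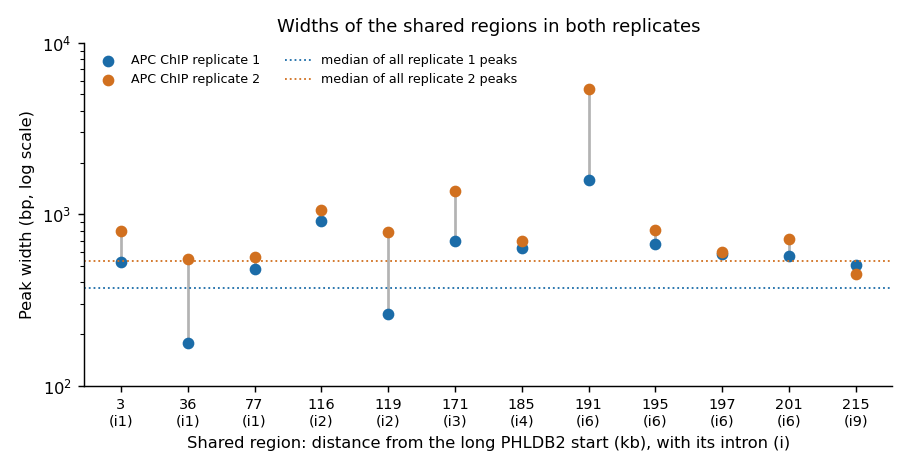
Width in bp, on a log scale, of the 12 shared regions in replicate 1 and replicate 2, joined by a line, in order along PHLDB2 from the long start, with dotted lines at the median of each whole list. In 11 of 12 regions replicate 2 is wider, and the region of intron 6 at 191 kb is the widest in both replicates.

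Shared region 1, in intron 1, was 527 bp wide in replicate 1 and 796 bp in replicate 2. The 2 other shared regions of intron 1 had widths of 178 and 545 bp and of 477 and 565 bp in replicates 1 and 2. Shared region 4, in intron 2 from 111566795 to 111567703, was 910 bp wide in replicate 1, wider than 96.6% of that list, and 1057 bp in replicate 2. Its neighbor, shared region 5, was 261 and 785 bp wide, and the centres of its peaks were only 10 bp apart. The region of intron 3, from 111621771 to 111622470, was 701 bp wide in replicate 1 and 1367 bp in replicate 2, wider than 90.5% and 97.4% of the lists. The region of intron 4 was 638 and 693 bp wide. After the widest region, the other 3 regions of intron 6 lay between 567 and 671 bp in replicate 1 and between 601 and 803 bp in replicate 2. Shared region 12 in intron 9 was the only one that was narrower in replicate 2, with 502 and 446 bp. The median ratio of widths, replicate 2 over replicate 1, was 1.23 (range 0.888 to 3.39, n = 12), beside 1.51 over all 3984 shared regions, and replicate 2 was wider in 91.7% of the locus pairs, beside 90.4% of all pairs. The ratio was above 3 in 3 pairs, those at 36.4, 119 and 191 kb from the long start.

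In windows of 500 bp, TCF7L2 letters were found in most shared regions of PHLDB2, while AP-1 letters were found in 1. TCF7L2 is the DNA-binding partner of β-catenin in colon cells, and AP-1 is the family of FOS and JUN dimers that answers growth signals. In windows of 500 bp around each centre, 9 of 12 shared regions (75%, 42.8% to 94.5%) held at least 1 TCF7L2 match, beside 36.5% of all shared regions. AP-1 letters were in 1 of 12 windows (8.33%, 0.211% to 38.5%), beside 35.4% of all shared regions. A TCF7L2 match with no AP-1 match in the window was found in 8 of 12 regions, beside 18.6% of all shared regions, and 3 of 12 had neither, beside 46%. Base composition differed between these sets, with a median GC content of 40.4% in the locus windows and 51.7% over all shared regions, and its part in the result was not tested. The 1156 shared intron regions more than 1 kb from a TSS were closer in GC content (43.4%), and 52.9% of them held TCF7L2 letters and 54.6% held AP-1 letters. In this set 24.1% had TCF7L2 letters without AP-1 letters and 21.3% had neither. The interval for TCF7L2 in the locus includes 52.9%, and the interval for AP-1 ends below 54.6%. The 12 regions were chosen from 1 gene and may not be independent, so this is no test of a difference. Over all members of a replicate, shared or not, TCF7L2 letters were in 12 of 18 replicate 1 peaks (66.7%) and in 13 of 28 replicate 2 peaks (46.4%), beside 32.8% and 36.4% of the whole lists. AP-1 letters were in 3 of 18 (16.7%) and 4 of 28 (14.3%), beside 28.5% and 31.2%. In windows of 300 bp TCF7L2 letters were in 5 of 12 regions (41.7%, 15.2% to 72.3%), beside 28.4% of all shared regions. AP-1 letters were again in 1 of 12, beside 30.5%. Among windows of that length 5 kb to each side, TCF7L2 letters were in 7 of 24 (29.2%) and AP-1 letters in 1 (4.17%). The TCF7L2 interval for 300 bp includes 28.4% and 29.2%.

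**Figure D4:**
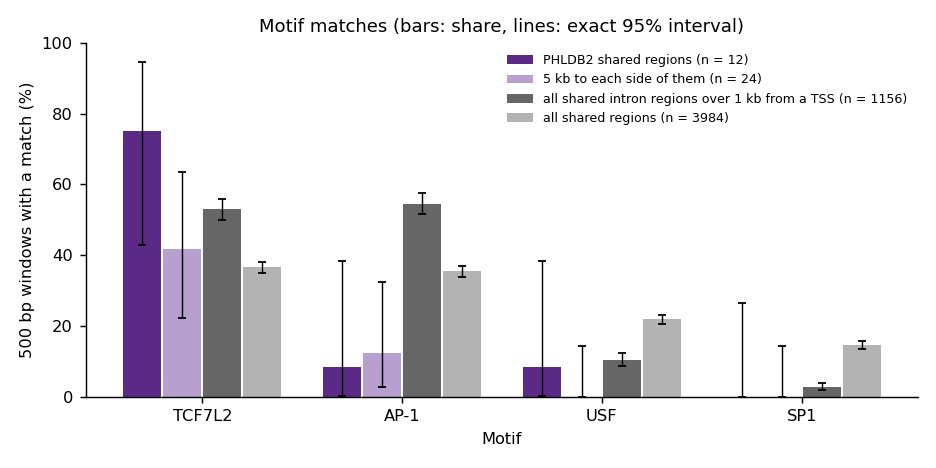
Percentage of 500 bp windows with at least 1 match to the letters of 4 factors, in the 12 shared regions of PHLDB2, in the 24 windows 5 kb to each side of them, in 1156 shared intron regions over 1 kb from a TSS and in all 3984 shared regions, with exact 95% intervals. TCF7L2 stands at 75% and AP-1 at 8.33% in the PHLDB2 regions. The interval for AP-1 lies below the value of the shared intron regions and overlaps that of the windows beside them (12.5%). The 12 regions were chosen from 1 gene and may not be independent, so this is no test of a difference.

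Windows 5 kb to each side of the shared regions held TCF7L2 letters in 10 of 24 cases (41.7%, 22.1% to 63.4%) and AP-1 letters in 3 of 24 (12.5%, 2.66% to 32.4%). Of these 24 windows, 7 touched another peak of the locus. In the 17 that touched none, TCF7L2 letters were in 8 (47.1%) and AP-1 letters in 3 (17.6%). The intervals of the shared regions and of the windows beside them overlapped for both motifs. Per base, the PHLDB2 body had 1.97 TCF7L2 matches per kb where peaks of both replicates covered it (19 matches in 9.65 kb). It had 0.881 per kb where only replicate 2 covered it (15 matches in 17.0 kb) and 1.04 per kb where neither did (225 matches in 216 kb). AP-1 letters had 0.311, 0.176 and 0.185 matches per kb in the same 3 parts, from 3, 3 and 40 matches. The 1.26 kb that only replicate 1 covered held 1 TCF7L2 match and 2 AP-1 matches, or 0.791 and 1.58 per kb. Of the 260 TCF7L2 matches in the gene body, 7.31% lay in peaks of both replicates, as did 6.25% of the 48 AP-1 matches. Peaks of both replicates covered 9.65 kb of the 244 kb body.

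The matches varied in their place and their letters. Of the 14 TCF7L2 matches in the 500 bp windows, 5 read AACAAAG, 4 read TTCAAAG, 3 read ATCAAAG and 2 read TACAAAG on their own strand. The strictest form, ATCAAAG, was in 2 of 12 windows (16.7%), those of shared regions 4 and 11 shown above. It was in 12.7% of all shared regions and in 18.8% of the shared intron regions over 1 kb from a TSS. The regions not printed above had their TCF7L2 matches inside the 500 bp window as follows. Each is given with 10 bases to either side on the plus strand and the match in capitals.
Shared region 2, intron 1 (chr3:111487530-111487556): acccatgccaAACAAAGgtccatacga
Shared region 3, intron 1 (chr3:111528468-111528494): gtttgcttttCTTTGTTgctaaggcaa
Shared region 5, intron 2 (chr3:111570615-111570641): aagcctaaaaTTCAAAGccccatcttt
Shared region 7, intron 4 (chr3:111636578-111636604): tttagaaagcTACAAAGtaaagaataa
Shared region 9, intron 6 (chr3:111646053-111646079): atagataggaCTTTGAAtggacctccc
In shared regions 2 and 3 the match lay 192 and 244.5 bp from the centre of the replicate 1 peak, outside that peak and inside the wider replicate 2 peak. Shared regions 7 and 9 each held another TCF7L2 match, 262 and 250.5 bp from the centre. Both of these lay outside the window but inside the peaks of both replicates. Counted inside replicate 1 peaks alone, TCF7L2 letters were in 7 of 12 shared regions, beside 33.4% of all shared regions, and AP-1 letters were in 2 of 12, beside 32.9%. Shared regions 6 and 10, in introns 3 and 6, held neither kind of letters in either replicate's peak.

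The widest region, like shared regions 6 and 10, had none of the letters in its 500 bp window. Its replicate 1 peak held only the AP-1 match that opens the sequence of shared region 8 above, 302.5 bp before the centre. Its wide replicate 2 peak held the same AP-1 match and 4 TCF7L2 matches. Of these, 3 lay in the first part of the wide peak, at least 946.5 bp before the centre of the replicate 1 peak. All 4 are shown because they fall where replicate 1 had other calls or none.
Wide peak, first match (chr3:111640856-111640882): ggctatgcttTTCAAAGattctgcaag
Wide peak, second match (chr3:111641469-111641495): gggaagtggaAACAAAGactggtctag
Wide peak, next match (chr3:111641722-111641748): ccctccttccATCAAAGaccactccct
Wide peak, last match (chr3:111645289-111645315): tttcttacatTTCAAAGttggctccct
The second match and the next one lay inside the replicate 1 peak from 111641087 to 111641840, and the last lay inside the one from 111644970 to 111645714, both of which counted as not shared. The first lay in no replicate 1 peak.

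Letters of 4 other factors were searched in the same windows. CACGTG, the core bound by USF factors, was in 1 of 12 windows, that of shared region 2, beside 21.9% of all shared regions and 10.5% of the shared intron regions over 1 kb from a TSS. Matches for SP1, NRF1 and EGR1 were in 0 of 12 windows, which at 3 counts allows a share of up to 25% for each, beside 14.6%, 2.66% and 5.17% of all shared regions. In the shared intron regions over 1 kb from a TSS these shares were 2.85%, 0% and 1.30%. The shares of both sets lie under 25%, so 0 of 12 windows cannot tell which set the locus was closer to. A match is a stretch of letters and not a bound site, and no match says only that these letters were not in the window. Among members without a partner, TCF7L2 letters were in 3 of 6 replicate 1 peaks and 5 of 16 replicate 2 peaks, beside 32.8% and 36.4% of the whole lists. AP-1 letters were in 2 of 6 and 3 of 16, beside 28.5% and 31.2%.

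Few genes hosted as many shared regions as PHLDB2. It hosted 12, a count passed by PCDH7, a protocadherin gene, with 32 and RAD51B, a DNA repair gene, with 13. PDE4B, a cyclic AMP phosphodiesterase gene, and VTI1A, a gene for vesicle fusion, also hosted 12 each, and CDKAL1, a tRNA-modifying enzyme gene, hosted 11. These 5 were the genes with the most hosted shared regions after leaving out PHLDB2, ties taken in alphabetical order. Among the 1792 protein-coding genes that hosted any, the median was 1. Scaled to the length of the gene, PHLDB2 had 4.92 hosted shared regions per 100 kb, against 7.50 in PCDH7, 1.43 in RAD51B, 2.06 in PDE4B, 3.23 in VTI1A and 1.58 in CDKAL1. It ranked 9 by this density among the 29 genes that hosted 5 or more. PHLDB2 also had the widest hosted shared region of the 6, 1577 bp in replicate 1, against 1567 bp in VTI1A and 1104 bp in PCDH7.

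**Figure D5:**
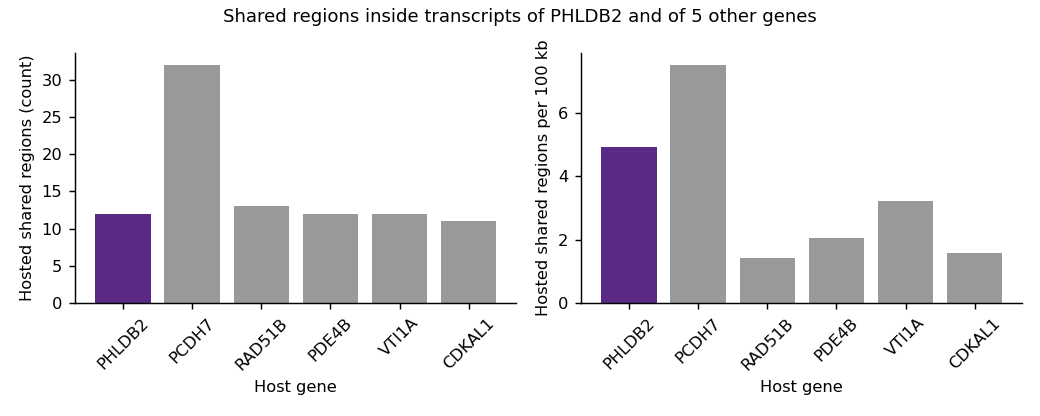
Number of shared regions inside transcripts of PHLDB2 and of the 5 other protein-coding genes with the most, on the left, and the same number per 100 kb of gene body, on the right. PHLDB2 hosts 12 regions, or 4.92 per 100 kb, the second highest density of the 6 after PCDH7 with 7.50.

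PHLDB2 belongs to a set of proteins that tie microtubules to the cell cortex and to adhesion sites. Of 20 genes of this set, 6 (30%) hosted a shared region, beside 8.93% of all protein-coding genes. The count includes PHLDB2 itself, and the genes were not matched in length. MACF1 and DST, giant linkers between actin and microtubules, hosted 4 shared regions each, the widest of MACF1 being 712 bp and 975 bp in replicates 1 and 2. PPFIBP1, the liprin-β1 gene, hosted 3, none of which was assigned to it by nearest TSS. PHLDB1, the closest relative of PHLDB2 in the list, hosted 1 region of 194 bp in intron 4. CLASP2, whose protein tracks microtubule plus ends, hosted 1 of 475 bp in its 5′ UTR, 197 bp from the TSS, the only one of the 6 genes whose widest region lay at a start. The other 14 genes, among them CLASP1, KANK1 to KANK4 and APC itself, hosted none. The median over the 20 genes was 0. For ABHD10, the related list of 9 enzymes that remove palmitate from proteins had 1 gene (11.1%) with a hosted shared region, PPT1, a lysosomal thioesterase gene, with a region of 159 bp 400 bp from its TSS. By nearest TSS the count was 2 of 9, because ABHD10 was then credited with 5 regions.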

How the data were processed

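APC ChIP and input chromatin of HCT-116 cells were sequenced in 2 biological replicates each. The authors aligned reads to hg19 with BWA, ran MACS2 separately for both replicates, each with its matching input, and adjusted the threshold to keep known loci. Their versions are not given in the sources used here. Files as deposited held positions, distances to the nearest TSS and a column named as a score, which was the end minus the start plus 2 in every row and was read as the peak width in bp. A deposited table of distances between centres gave the same distances within 0.5 bp for the 18 replicate 1 members. Depth was unknown.

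Members and gene lists were chosen with earlier results of these data known, so results are descriptions with exact Clopper-Pearson 95% intervals. Host genes came from the transcript in the deposited annotation. Accessions were matched to RefSeq symbols in 4101 of 4170 replicate 1 rows and 5218 of 5297 replicate 2 rows. The named genes were PHLDB2, ABHD10, the genes of the window, list genes with a shared region and the 5 genes with the most hosted shared regions. ATG3, ZBED2, C3orf52, PVRL3-AS1 and LINC-PINT were named after their values were seen. Motif letters were searched on both strands of GRCh37 (Python 3.11.15, pysam 0.24.0, scipy 1.17.1), and the counting of shared peaks and matches was tested on simulated data. Gene models were from GENCODE 44. Alternatives were other sharing limits, the wider 50% of each list, each replicate alone, other windows and letters, and other grids.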

Additional observations from a re-analysis of the deposited data

How the results depend on the processing

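Of 69 alternative values, 50 stayed within 1.5 times the reported value, 19 did not and 0 reversed. Sharing, host and width results held under sharing limits of 100, 200 and 1000 bp, under overlap by 1 bp and in the wider 50% of each list: 9 to 16 replicate 1 peaks and 9 to 15 replicate 2 peaks were shared, and the median width ratio was 1.20 to 1.39. AP-1 letters, found in 1 shared region, were in 0 with limits of 200 or 100 bp and in the wider 50%, and in 2 with a limit of 1000 bp, overlap by 1 bp or whole regions. TCF7L2 letters were in 5 regions with 300 bp windows and in 2 with ATCAAAG alone. Palmitate-removing genes with a region numbered 0 with a limit of 100 bp and in the wider 50%, and 2 by nearest TSS. Taking all peaks of 1 replicate alone, that is leaving out the other replicate, gave 18 to 27 regions hosted by PHLDB2, 9 to 17 assigned to it, 12 to 13 with TCF7L2 letters (12 of 18 in replicate 1 and 13 of 28, or 46.4%, in replicate 2, against 75% of shared regions), 3 to 4 with AP-1 letters, 8 microtubule anchoring genes and 1 to 3 palmitate-removing genes. The 10 kb stretch of intron 6 ranked 1, and it ranked 7 with the grid moved by 5 kb, 4 with a grid of 5 kb, 4 with a grid of 20 kb and 1 without satellites. These grids were chosen after seeing the data. Apart from fewer or more peaks entering, the cause was not tested. No paired analysis was possible because the input libraries had no values and no result came from a test. With 2 ChIP libraries, no enrichment values and unknown depth, a peak missing from 1 replicate is not shown to be absent from it, and whether 1 wide peak or several narrow ones were called may depend on depth.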

Other observations

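Repeats were at the centre of 1 of 18 replicate 1 members and 4 of 28 replicate 2 members. The share over the whole lists was not counted, so these counts are not shown to be low or high. In replicate 1 only the widest peak was centred on one, the L2b LINE of intron 6. In replicate 2 there were 4, on that same L2b element, on an AluJo SINE in the next shared region, on an AluSx1 SINE in intron 3 from 111616758 to 111617674, and on an MLT1I element, an LTR of the ERVL-MaLR family, after the inner start from 111593204 to 111593705. The last 2 peaks had no replicate 1 partner. In intron 3 replicate 2 had 7 peaks, against 1 in replicate 1, and 3 of them, from 111608401 to 111609481, followed each other so closely that 96.4% of the run was inside peaks. No replicate 1 centre lay closer than 12866 bp to theirs.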
